A study of Mus musculus with 4 samples.

Results

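The regions described here are 1156 stretches of open chromatin in the mouse melanoma line B16F10, kept in vitro, that lay away from gene ends, carried strong peaks in cells with a scrambled guide RNA (sgScramble, 2 libraries) and had no peak in either library of cells with a guide against Arid1a (sgArid1a, 2 libraries). The assay was ATAC-seq, where Tn5 transposase inserts sequencing adapters into accessible DNA, and the data are a list of broad peaks per library, called by the authors. Both groups are the same line and differ by the guide. Peak names in the sgScramble lists begin with sgNT. Whether the edited cells were a pool or a single clone, and whether replicates were separate cultures, is not given in the sources used here, so the spread between replicates may be technical.

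The regions were chosen by their measured values. Overlapping peaks of the 4 lists were merged into 103629 regions. A missing region had no peak in either sgArid1a list and a peak in both sgScramble lists, lay over 1 kb and up to 100 kb from the nearest end of a protein-coding gene (such regions are called distal here), and had a mean percentile above 50 for the authors' fold of signal over background, ranked within each sgScramble list (called strong here). Both sgScramble lists held 26328 strong distal regions, of which 1156 had no sgArid1a peak, which is 4.39% (95% Clopper-Pearson interval 4.15% to 4.65%). The others comprised 22807 regions (86.6%) with a peak in all 4 lists, called kept regions, and 2365 (8.98%) with a peak in 1 sgArid1a list. Among the 73056 regions of every strength and distance that both sgScramble lists held, 9388 (12.9%) had no sgArid1a peak, and among the 24157 weaker distal ones 6046 (25%) had none. Since absence from the sgArid1a lists and strength in the sgScramble lists defined the regions, these shares are descriptions and carry no test. A region without a called peak may still be accessible below the calling threshold, and read depth is unknown from these lists. Intervals cover counting error over regions, and the limit given for a count of 0 is 3 regions of the total, which lies below the upper end of the Clopper-Pearson interval. The columns of fold, −log10 p and −log10 q were read from the layout of the lists and their values.

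ARID1A is a DNA-binding subunit of the canonical BAF (SWI/SNF) complex, which uses ATP to slide or evict nucleosomes. BAF is known for keeping enhancers, the distal elements that act on genes from afar, accessible to transcription factors, while many promoters stay accessible through other means. In melanocytes and melanoma the complex is known to work with MITF and SOX10, the factors that set the pigment cell programme.

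Few of the missing regions lay at a known start site of any transcript. RefSeq start windows (GRCm38.p6, 250 bases before to 50 after a start, 32851 windows) overlapped 8 of the 1156 missing regions (0.692%, interval 0.299% to 1.36%), 30 of the 2365 regions with a peak in 1 sgArid1a list (1.27%) and 1257 of the 22807 kept regions (5.51%, interval 5.22% to 5.82%). Missing regions were narrower than kept ones, and width moved with this share. In the narrowest of 4 equal bins of strong distal regions by peak width, 8 of 846 missing regions (0.946%, interval 0.409% to 1.85%) and 50 of 4353 kept regions (1.149%, interval 0.854% to 1.51%) overlapped a start window, and the intervals overlapped. In the lowest of 4 equal bins by −log10 p the counts were 4 of 901 missing regions (0.444%, interval 0.121% to 1.13%) and 72 of 4142 kept regions (1.74%, interval 1.36% to 2.18%). Of the 8 windows in missing regions, 6 belonged to long non-coding RNA genes and 2 to protein-coding genes, Ptpdc1, a protein phosphatase gene, and Gm11213, in regions 15383 bp and 3787 bp from the nearest end of the gene. Ends of long non-coding RNA genes lay within 1 kb of 26 missing regions (2.25%, interval 1.47% to 3.28%) and of 1486 kept regions (6.52%, interval 6.20% to 6.84%).

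Of these 8 start windows 5 are shown, the 3 in the strongest regions and the 2 of protein-coding genes, because they are the stretches of missing regions whose bases are held in the reference used here. Each is the RefSeq sequence of the transcribed strand, 5′ to 3′. Capitals mark matches, on either strand, to TGACTCA or TGAGTCA (AP-1), GGAATG (TEAD), ACAATG or ACAAAG (SOX), CACGTG or CATGTG (E-box), TGTGGT (RUNX) or CCGGAA (ETS). In the Gm33714 window a SOX and an ETS match overlap.
Gm33714, a long non-coding RNA gene (chr5:144479750-144480049, minus strand, all 300 bases in a region of mean percentile 83.5): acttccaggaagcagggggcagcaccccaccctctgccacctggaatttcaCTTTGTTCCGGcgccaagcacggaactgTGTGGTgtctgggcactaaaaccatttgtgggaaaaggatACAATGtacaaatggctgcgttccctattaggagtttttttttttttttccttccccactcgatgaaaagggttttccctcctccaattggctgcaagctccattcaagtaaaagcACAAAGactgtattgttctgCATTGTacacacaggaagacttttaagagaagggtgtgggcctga
Gm27198, a long non-coding RNA gene (chr14:118735111-118735410, minus strand, 281 of 300 bases in a region of mean percentile 77.2): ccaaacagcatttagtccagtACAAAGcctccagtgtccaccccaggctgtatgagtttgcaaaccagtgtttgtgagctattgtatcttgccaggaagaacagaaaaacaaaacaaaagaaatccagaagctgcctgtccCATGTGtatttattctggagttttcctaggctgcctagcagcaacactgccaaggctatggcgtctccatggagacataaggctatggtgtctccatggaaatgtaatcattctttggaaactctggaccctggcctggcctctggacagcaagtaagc
6030407O03Rik, a long non-coding RNA gene (chr1:73864417-73864716, minus strand, all 300 bases in a region of mean percentile 77.2): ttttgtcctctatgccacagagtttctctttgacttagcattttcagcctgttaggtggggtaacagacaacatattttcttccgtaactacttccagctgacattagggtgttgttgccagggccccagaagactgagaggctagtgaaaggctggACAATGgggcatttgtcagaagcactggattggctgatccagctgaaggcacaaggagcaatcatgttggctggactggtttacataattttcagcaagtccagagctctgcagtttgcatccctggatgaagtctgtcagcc
Gm11213, a protein-coding gene (chr4:63600715-63601014, minus strand, all 300 bases in a region of mean percentile 65.2): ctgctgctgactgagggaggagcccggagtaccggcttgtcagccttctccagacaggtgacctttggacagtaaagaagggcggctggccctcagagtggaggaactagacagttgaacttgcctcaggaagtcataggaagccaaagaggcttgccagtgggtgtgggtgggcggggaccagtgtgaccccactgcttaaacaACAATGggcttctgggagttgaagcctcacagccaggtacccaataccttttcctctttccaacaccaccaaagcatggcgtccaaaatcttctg
Ptpdc1, a protein-coding gene (chr13:48593342-48593641, minus strand, 185 of 300 bases in a region of mean percentile 64.7): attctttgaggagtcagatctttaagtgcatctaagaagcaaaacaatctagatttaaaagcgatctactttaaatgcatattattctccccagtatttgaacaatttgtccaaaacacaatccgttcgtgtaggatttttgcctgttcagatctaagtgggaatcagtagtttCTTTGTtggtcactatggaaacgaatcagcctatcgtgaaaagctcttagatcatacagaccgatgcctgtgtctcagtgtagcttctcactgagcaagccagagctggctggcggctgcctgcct

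A SOX match stood in 5 of the 8 windows, against 424 of the 1556 start windows in kept regions (27.2%) and 9394 of all 32851 windows (28.6%). An AP-1 match stood in 0 of 8, against 84 of 1556 (5.40%) in kept regions and 5.20% of all windows, and a TEAD match in 0 of 8, against 240 of 1556 (15.4%) and 14.7%. E-box and RUNX matches stood in 2 windows each, against 19.1% and 14.3% of windows in kept regions and 20.4% and 16.8% of all windows, and an ETS match in 1, against 19.2% and 14.9%. These are letters found in a window and not sites shown to be bound, and with 8 windows no difference can be read from them. The sequence of the other missing regions was not analysed here.

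The strongest missing regions had folds of 5.85 to 7.86 in the sgScramble lists, whose median peaks had folds of 4.001 and 3.93. None had a peak in either sgArid1a list, and the values that follow are those of sgScramble replicates 1 and 2. The first lay inside Mrc1, the macrophage mannose receptor gene, on chromosome 2 (mm10, 14325991 to 14326277), with folds of 7.86 and 6.78 and −log10 p of 19.1 and 15.6. Its nearest peaks were 29938 bp away in sgArid1a replicate 1 and 13268 bp away in replicate 2. The second lay between genes on chromosome 10 (112882937 to 112883658), 41770 bp from Atxn7l3b, with folds of 6.63 and 7.49. The replicates thus ranked these regions in opposite order, and both placed each of them above percentile 95 of its list.

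The next 3 also lay between genes. A region 6841 bp from the olfactory receptor gene Olfr957 (chromosome 9, 39518559 to 39519173) had folds of 6.79 and 7.01. One 55745 bp from Fggy, a carbohydrate kinase gene (chromosome 4, 95500998 to 95501735), had 7.01 and 6.73. One 38912 bp from Mtpn, the myotrophin gene (chromosome 6, 35578800 to 35579717), had 7.53 and 6.22, and sgArid1a replicate 1 had a peak 2438 bp from it, the closest sgArid1a peak to any of the 10. Inside genes lay regions of Naaa, which encodes an acid amidase of lipid breakdown (chromosome 5, 92263638 to 92264367, folds 6.26 and 6.93), Ints10, an Integrator complex subunit gene (chromosome 8, 68813427 to 68813835, folds 6.05 and 6.77), Igf1r, the insulin-like growth factor receptor gene (chromosome 7, 68210212 to 68210899, folds 6.76 and 5.85), and Gpc3, which encodes the heparan sulphate proteoglycan glypican 3 (chromosome X, 52301932 to 52302388, folds 6.61 and 5.93). The last of the 10 lay 24694 bp from Olfr31 (chromosome 14, 14302815 to 14303419), with folds of 6.27 and 6.13. All 10 met the rule again under each of the alternative settings but one, a peak width of at least 500 bp, under which 6 did. They were picked for the highest mean percentiles, which the rule itself uses. Meeting most settings thus largely follows from that choice and is no separate check.

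**Figure D1:**
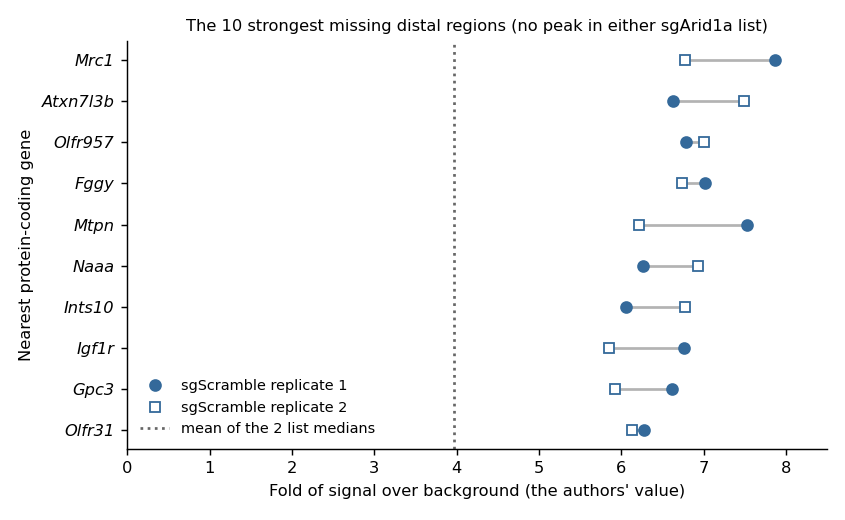
Fold of signal over background (linear axis, the authors' value) of the 10 strongest missing distal regions, by nearest protein-coding gene; filled circles are sgScramble replicate 1, open squares replicate 2, and the dotted line is the mean of the 2 list medians. Every point lies between 5.85 and 7.86, right of the line, and no region had a peak in either sgArid1a list.

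Such strong regions were a small part. The mean percentile of the 1156 missing regions had a lowest value of 50.02, a median of 60.3 and a highest value of 98.1, with 258 above 70, 95 above 80 and 17 above 90. The kept regions had a median of 74.4. At the threshold, the weakest 2 missing regions stood at percentiles 50.017 and 50.032 and the 2 strongest distal regions left out for weakness at 49.999 and 49.969. By distance, the nearest lay 1027 bp and the farthest 99058 bp from a gene end, and regions at 993 bp and 100048 bp were just outside. The sgScramble lists ranked many missing regions differently: 760 of 1156 (65.7%) were above percentile 50 in both lists, and the 2 percentiles of a region differed by a median of 10.96 points, against 6.46 points in kept regions.

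By measures that did not enter the rule, but come from the same sgScramble lists, the missing regions were narrow and of low significance for their fold. Their peaks were 464 bp wide at the median in sgScramble replicate 1 and 482 bp in replicate 2, against 862 bp and 867 bp in kept regions. Their median −log10 p was 8.09 in both lists, against 15.7 and 16.1 in kept regions. Only 332 of the 1156 (28.7%) stood above percentile 50 by −log10 p as well as by fold, against 19610 of 22807 kept regions (86.0%).

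Across 4 equal bins of the strong distal regions by mean −log10 p, the share missing was 13.7% (901 of 6582) in the lowest bin, 3.37% (222) in the second, 0.441% (29) in the third and 0.0608% (4; interval 0.0166% to 0.155%) in the highest. By peak width the shares were 12.9% (846 of 6582) for the narrowest bin and 0.304% (20 of 6579) for the widest. By fold itself the share was 9.73% at percentiles 50 to 60 and 0.446% (17 of 3815) above 90. Most missing regions, 901 of 1156, thus stood in the lowest bin of significance. Whether a deeper sgArid1a library would have listed them was not tested. The median −log10 p over whole lists was 7.06 and 7.62 for sgArid1a, against 9.20 and 9.02 for sgScramble, and sgArid1a libraries had fewer peaks (65353 and 71255) than sgScramble libraries (82319 and 85613).

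**Figure D2:**
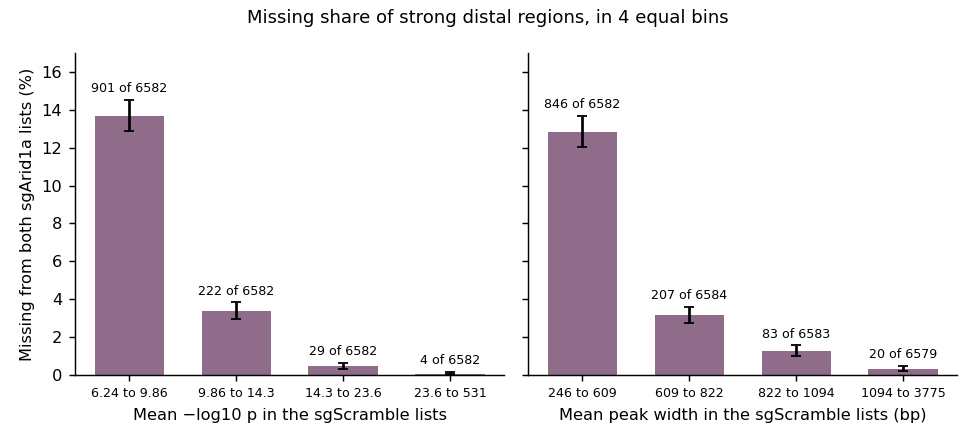
Percentage of strong distal regions without a peak in either sgArid1a list, by 4 equal bins of mean −log10 p (left) and mean peak width in bp (right); bars start at 0, lines are 95% Clopper-Pearson intervals and numbers give missing regions out of all in the bin. The share was 13.7% in the lowest and 0.0608% in the highest bin of −log10 p.

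The sgArid1a replicates did not contribute equally. Of the strong distal regions, 2846 were missing from sgArid1a replicate 1 and 1831 from replicate 2. The 1156 missing from both were 40.6% of the first set and 63.1% of the second. With sgArid1a replicate 2 left out, the rule asked for absence from replicate 1 alone and gave 2847. With replicate 1 left out it gave 1831. With the roles of the groups exchanged, 41 of 19862 regions (0.206%, interval 0.148% to 0.280%) that were strong and distal in both sgArid1a lists had no peak in either sgScramble list. The sgArid1a lists were shorter, and the exchange was not repeated with lists of equal length. The counts of 41 and 1156 are thus not on equal terms. With the 65353 strongest peaks of each list, the number of missing strong distal regions was 546 (2.76%), and with strength ranked by −log10 p it was 507 (1.96%).

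Missing regions stood alone more often than kept ones, and the peaks around them were shorter in total in both sgArid1a libraries than in both sgScramble libraries, as they were around kept regions. Another region present in both sgScramble lists, and not itself a strong missing one, lay within 10 kb of 500 missing regions (43.3%) and of 14045 kept regions (61.6%). Of those neighbours, counted once for each region they lay beside, 87 of 651 (13.4%, interval 10.8% to 16.2%) were absent from both sgArid1a lists around missing regions and 2389 of 20390 (11.7%, interval 11.3% to 12.2%) around kept regions. These intervals overlap. The 12.9% of all regions includes the strong missing regions, which were left out of the neighbours, so it is not a matching share.

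Peaks within 10 kb of a missing region, with all missing strong regions left out, covered a mean of 345 bp and 415 bp in sgArid1a replicates 1 and 2, against 500 bp and 518 bp in sgScramble replicates 1 and 2. The groups did not overlap, with a mean of 380 ± 49.3 bp in sgArid1a and 509 ± 12.7 bp in sgScramble libraries (SD, n = 2 each). The difference was -129 bp or -25.3%, and -55.1 bp with lists of equal length. Around kept regions the means were 637 ± 69.8 bp in sgArid1a and 814 ± 8.80 bp in sgScramble libraries, a difference of -21.8%. Both differences had p = 0.333 by a two-sided exact permutation test, the smallest that 2 libraries against 2 can give. The ratio of the length around missing regions to that around kept regions was 0.587 and 0.604 in sgArid1a and 0.618 and 0.631 in sgScramble libraries, a difference of -0.029 (exact p = 0.333). Without sgScramble replicate 2 the sign of that difference turned (0.0036), as it did with strength by −log10 p (0.065) and with percentiles above 75 (0.010), while with lists of equal length the difference was -0.064. Its sign thus depended on the setting. Missing and kept regions were both chosen by their sgArid1a peaks, and peaks nearby may share in this. The ratio thus does not stand apart from the rule.

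The genes nearest to missing regions, 1052 in number, had shorter gene-end peaks in the sgArid1a libraries, and so had other genes. Peaks within 2 kb of both ends of these genes covered a mean of 1044 bp and 1104 bp in sgArid1a replicates 1 and 2, against 1195 bp and 1189 bp in sgScramble replicates 1 and 2, a difference of -118 bp or -9.91% (exact p = 0.333), and of -52.9 bp with lists of equal length. Over the 9733 other genes nearest to a strong distal region the means were 1099 bp and 1189 bp in sgArid1a and 1263 bp and 1264 bp in sgScramble libraries, a difference of -9.46%. The ratio of the 2 sets of genes was 0.939 ± 0.0153 in sgArid1a and 0.943 ± 0.00343 in sgScramble libraries (n = 2 each, exact p = 1), and the groups overlapped. With lists of equal length the difference in this ratio was -0.061 (exact p = 0.333), against -0.0043 as reported.

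**Figure D3:**
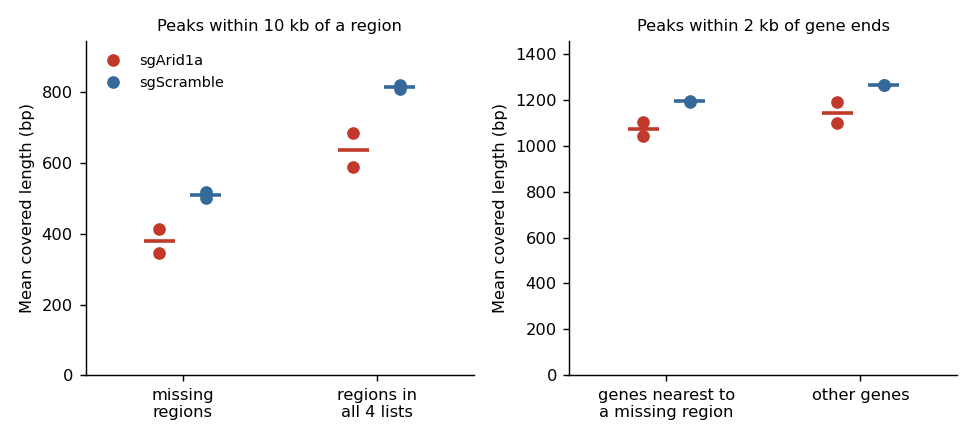
Mean length covered by peaks (bp, axes from 0) within 10 kb of missing and of kept strong distal regions (left), and within 2 kb of both ends of genes nearest to a missing region and of other genes (right); points are libraries, sgArid1a in red and sgScramble in blue, and bars are group means. Around missing regions the sgArid1a libraries stand at 345 and 415 bp and the sgScramble libraries at 500 and 518 bp.

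Some missing regions lay in groups. Of the 1156, 113 (9.78%) had another within 50 kb, in 51 pairs, 1 group of 3 and 2 groups of 4. No matching share was computed for an equal number of other strong distal regions. Whether this grouping is rare or frequent was thus not tested. A group of 4 lay on chromosome 3 (93507101 to 93597615), in a span that held S100a11 and an end of S100a10. Both genes encode calcium-binding proteins of the S100 family. The 4 missing regions of the group each lay between genes, at mean percentiles of 50.6, 80.4, 71.0 and 71.0. They were interleaved with 6 regions held by all 4 lists, and 14 regions there had a peak in both sgScramble lists. Over this span of 90515 bp the sgArid1a lists had 7 peaks each and the sgScramble lists 14 and 15. One missing region of the group held part of the start window of the long non-coding RNA gene Gm40093. A region held by all lists between them, at 39.9 kb from the first, had folds of 6.86 and 6.002 in sgArid1a libraries, against 5.60 and 6.28 in sgScramble libraries.

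**Figure D4:**
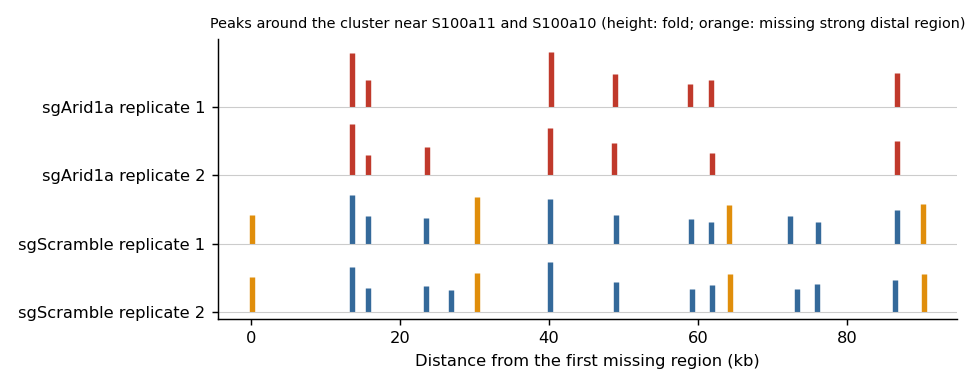
Peaks of each library along the group of missing regions near S100a11 and S100a10, by distance in kb from the first missing region; each line stands at a peak's centre, its height is the authors' fold (one scale for all rows, tallest 6.86), and orange marks missing strong distal regions. The 4 orange peaks appear in both sgScramble rows and in neither sgArid1a row. Peaks shared by all rows stand between the first and the last of them.

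The other group of 4 lay inside Map3k5, the gene of the stress-activated kinase ASK1, over 100802 bp on chromosome 10 (19991031 to 20091832). Its missing regions had folds of 3.83, 4.88, 5.25 and 4.42 in sgScramble replicate 1 and 4.85, 4.57, 4.78 and 3.63 in replicate 2. Of the 7 regions that both sgScramble lists held there, 2 were in all lists. The group of 3 lay within a span of 29058 bp inside Pi4ka, a lipid kinase gene, on chromosome 16 (17364406 to 17393463), with mean percentiles of 56.5, 50.9 and 50.5, and the sgArid1a lists had 0 peaks in that span. Of the 2 strongest pairs, 1 lay in 2210408I21Rik on chromosome 13 (77150103 to 77178340), at percentiles 77.9 and 90.9. The other lay on chromosome 3 (82013896 to 82029549). Its first region, at percentile 61.6, was inside Asic5, an ion channel gene. Its second, at 89.1, lay between genes, nearest to Gucy1b1, a subunit gene of soluble guanylate cyclase. The sgArid1a lists had 0 peaks in these 2 spans as well.

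Most genes had 1 missing region: 960 of the 1052 had 1, 82 had 2, 8 had 3 and 2 had 4. The counts that follow are missing regions out of strong distal regions nearest to the gene, to be read beside the 4.39% of all such regions. Map3k5 had 4 of 7 and Mdga2, which encodes a cell-surface protein of synapses, had 4 of 9. At 2210408I21Rik all 3 of 3 were missing. Gpc3 had 3 of 8, Fars2, a mitochondrial tRNA synthetase gene, 3 of 8, and BC052040 3 of 7. Sh3bp4, an endocytosis adaptor gene, had 3 of 9, Nek7, a kinase gene of mitosis and inflammasome assembly, 3 of 9, and Arhgap18, 3 of 6. These genes were picked for their counts, which are a description.

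Genes of cell adhesion and the matrix were among those with missing regions. Of the 90 strong distal regions nearest to extracellular matrix genes 10 (11.1%, interval 5.46% to 19.5%) were missing, at 7 of the 27 genes that had such a region. Tnc, the tenascin C gene, had 2 of 3, with folds of 6.27 and 5.68 in sgScramble replicates 1 and 2 at the stronger one (chromosome 4, 64074715 to 64075429, mean percentile 89.5). Col12a1, a collagen gene, had 2 of 6 and Thbs2, the thrombospondin 2 gene, 2 of 5. Over the alternative settings the share of this list ranged from 2.04% to 22.8%, and that of all strong distal regions from 1.40% to 16.2%. Integrin and focal adhesion genes had 11 of 123 (8.94%, interval 4.55% to 15.4%) at 8 of 24 genes, 17.1% without sgArid1a replicate 2 and 4.41% with strength by −log10 p. Ptk2, the focal adhesion kinase gene, had 2 of 6, both inside the gene, with folds of 5.16 and 5.33 at the stronger one. Nedd9, a scaffold that binds that kinase, had 2 of 8, and Tns1, which encodes tensin 1 of the same adhesions, 2 of 9, 1 of them at the 6030407O03Rik start window printed above.

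Neural crest guidance genes had 10 of 125 (8%, interval 3.90% to 14.2%) at 8 of 27 genes. This share was 15.2% without sgArid1a replicate 2, 0.848% with strength by −log10 p and 0% above percentile 75. Among the genes were Sema5a, a semaphorin gene, with 2 of 5, the receptor gene Robo2 with 2 of 2 and the netrin receptor gene Dcc with 1 of 1. In this list all 10 missing regions were in the lowest bin by −log10 p, as were 8 of 10 in the matrix list and 7 of 11 in the adhesion list. Of all missing regions, 901 of 1156 were in that bin, where the share missing was 13.7%. That bin held 35 strong distal regions of this list, 17 of the matrix list and 26 of the adhesion list. Receptor and MAP kinase feedback genes had 4 of 72 (5.56%): 2 of 9 at Fgfr2, a fibroblast growth factor receptor gene, 1 of 9 at Spred1, an inhibitor of Ras signalling, and 1 of 2 at Dusp4, a phosphatase gene of MAP kinases. Wnt genes had 2 of 98 (2.04%), at the transcription factor gene Tcf7l2 (1 of 10) and the receptor gene Ror2 (1 of 4).

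Of 88 strong distal regions nearest to melanocyte lineage genes 1 (1.14%, interval 0.0288% to 6.17%) was missing, 61109 bp from Tfap2b, a gene of the AP-2 factors (folds 5.02 and 4.08). That share was 5.68% without sgArid1a replicate 2, 4.49% without sgScramble replicate 2 and 8.70% with −log10 q of at least 5, against 10.8%, 5.36% and 16.2% of all strong distal regions under the same settings. Mitf, the lineage's master factor, had 11 such regions, and all 11 were in all 4 lists. The strong distal regions of this list had a median −log10 p of 16.9, against 14.3 over chromosomes 1 to 19. Lists with 0 missing were YAP, TEAD and Hippo genes (0 of 53, which allows up to 5.66%), TGF-beta and SMAD genes (0 of 79, up to 3.80%), AP-1 factors (0 of 33, up to 9.09%), cell cycle genes (0 of 37, up to 8.11%) and the type I interferon response (0 of 23, up to 13.0%). These counts of 0 rested on the libraries and settings: without sgArid1a replicate 2 the shares were 3.77%, 8.86%, 3.03%, 8.11% and 17.4% in the same order, against 10.8% of all strong distal regions, and with −log10 q of at least 5 they were 9.68%, 13.7%, 21.7%, 13.04% and 7.69%, against 16.2%. For the TGF-beta list the Clopper-Pearson interval reached 4.56%, above the 4.39% of all strong distal regions. Ifnb1, the interferon beta gene, had 2 strong distal regions, 1 in all lists and 1 in 1 sgArid1a list.

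Among BAF and PBAF subunit genes 1 of 48 (2.08%) was missing, 54338 bp from Smarca2, which encodes an ATPase of the complex, with folds of 4.23 and 4.07. Arid1a itself had 2 strong distal regions, and both were in all lists, so its locus adds no missing region and does not check the edit. The R-loop and DNA damage list had 6 of 42 (14.3%, interval 5.43% to 28.5%), at 6 of 18 genes. Of these 6 missing regions, 5 were in the lowest bin by −log10 p, against 901 of all 1156. That bin held 9 strong distal regions of the list. Named by the rule were Atm, a DNA damage kinase gene (1 of 1, inside the gene, chromosome 9, 53457977 to 53458274, folds 4.42 and 4.75), the helicase gene Aqr (1 of 3) and the topoisomerase gene Top1 (1 of 4). Under other settings this share ranged from 0% to 23.3%. DNA sensing genes had 1 of 18, inside Prkdc, the gene of the DNA-dependent protein kinase. Interferon gamma and antigen presentation genes had 1 of 33, near the kinase gene Jak1. Chemokine and cytokine genes had 2 of 42, near Csf2 and inside Il15, and housekeeping genes 1 of 26, near B4galt1. Over all 18 lists together 56 of 1121 (4.996%, interval 3.80% to 6.44%) were missing, close to the 4.39% of all strong distal regions. The lists were chosen with earlier results of these data known and differ in peak significance, so nothing particular to a list is read from its share.

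Inside protein-coding genes lay 691 of the 1156 missing regions (59.8%, interval 56.9% to 62.6%) and 12585 of the kept regions (55.2%, interval 54.5% to 55.8%). The reference used here gives no exons, so exonic and intronic regions were not told apart. The missing share was 4.72% inside genes and 3.98% outside. By distance to a gene end it was lowest between 1 and 5 kb, at 3.19% (interval 2.65% to 3.81%), and highest between 50 and 100 kb, at 6.01% (interval 5.34% to 6.73%). The bins between these, in order of distance, had 3.48%, 4.18% and 4.85%. The median distance was 23892 bp for missing and 17836 bp for kept regions.

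By chromosome the share was highest on X, with 42 of 492 strong distal regions missing (8.54%, interval 6.22% to 11.4%), against 1114 of 25834 (4.31%, interval 4.07% to 4.57%) on chromosomes 1 to 19 together. It was lowest on chromosome 6 (47 of 1757, 2.68%, interval 1.97% to 3.54%), followed by chromosomes 12 (33 of 1161) and 11 (53 of 1764). Peak significance moved with these shares: the median −log10 p of strong distal regions was 11.6 on X, 17.03 on chromosome 6 and 14.3 on chromosomes 1 to 19. Within the lowest bin by −log10 p the share was 18.8% on X (35 of 186), 9.64% on chromosome 6 (32 of 332) and 13.5% on chromosomes 1 to 19. With lists of equal length the X share was 4.30%, against 2.76% of all strong distal regions, and with strength by −log10 p it was 2.28%, against 1.96%.

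**Figure D5:**
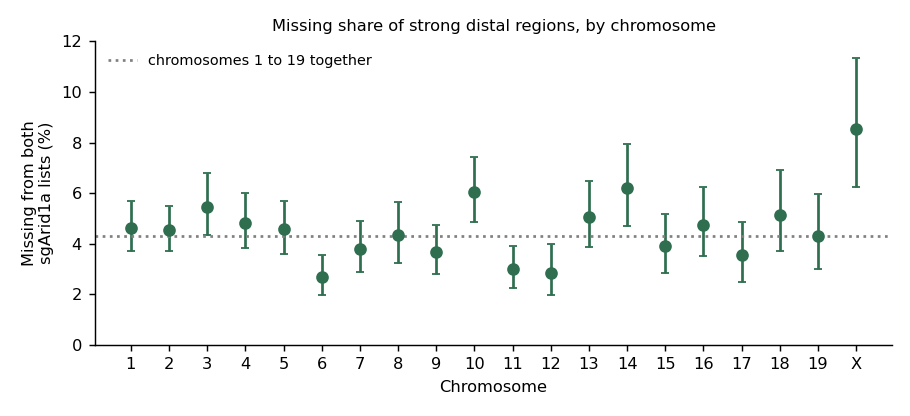
Percentage of strong distal regions missing from both sgArid1a lists on each chromosome, with 95% Clopper-Pearson intervals; the dotted line is chromosomes 1 to 19 together, and Y, with 2 such regions, is not drawn. X stands at 8.54% and chromosome 6 at 2.68%.

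The label of the line was checked at gene ends. A peak within 1 kb of a gene end was found at all 9 melanocyte markers in each of the 4 libraries and at 0 of 8 keratinocyte and epithelial markers in each. Leukocyte markers had 1 and 3 of 9 in sgArid1a libraries, against 3 and 2 of 9 in sgScramble libraries, and fibroblast and endothelial markers 2 and 3 of 9 against 3 and 3 of 9. At Ptprc, the pan-leukocyte gene, no list had a peak at a gene end, but a missing region lay inside the gene (chromosome 1, 138085751 to 138086139), with folds of 6.05 and 5.52 in sgScramble replicates 1 and 2 and a mean percentile of 87.1. Missing regions were also nearest to 2 fibroblast and endothelial markers, Lum (mean percentile 61.1) and Kdr (55.2). Out of the strong distal regions nearest to each gene, these were 1 of 2 at Ptprc, 1 of 2 at Lum and 1 of 7 at Kdr. Such small counts are to be read beside the 4.39% of all strong distal regions. The part of other cells in these peaks was not tested. No miRNA hairpin of the RefSeq table overlapped a missing region (0 of 1156, which allows up to 0.260%). The share among kept regions was not counted, so nothing particular to missing regions is read from this.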

How the data were processed

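The data are ATAC-seq libraries of B16F10 cells, 2 with sgArid1a and 2 with sgScramble, grouped by the sample titles. For every library the authors deposited broad peaks without a header. Their columns were read, from the broadPeak layout and the values, as the authors' score, −log10 q-value, −log10 p-value and fold (the ratio of signal to background). In the submitters' processing notes HOMER and STAR 2.5.3a stand as tools, and mm10 and GRCm38 as builds, with no roles. Which caller made the peaks, and whether read ends were shifted for Tn5, is not given in the sources used here. Scores were not used. Fold and −log10 p depend on depth and background, so the rule and the bins used them only within the sgScramble lists. Where they stand side by side for different libraries they are descriptions.

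Overlapping peaks (at least 1 bp) were merged on the autosomes, X and Y. Percentiles were ranks within a list, and a region took its highest peak of each list. Distances were taken to the ends of 21883 protein-coding genes of a RefSeq table (GRCm38.p6, the build of mm10), and a region was assigned to the gene with the nearest end. Of 497 listed symbols 494 matched, 2 of them through a synonym. Group means were compared by an exact two-sided permutation test over libraries. The members and the gene lists were chosen with earlier results of these data known. Genes were named by a rule: the 10 strongest missing regions, the 10 genes with the most, up to 3 genes per list, the 5 largest groups, and Arid1a, Mitf and Ifnb1. Of these, 1 gene and 1 list are not reported here. The planned motif search over all regions was not run, since a genome sequence was not used here, and start windows were searched in its place. On simulated lists of 60000 regions, 200 of 200 planted missing regions were recovered and no others were chosen. The lists were built to hold no other missing region, so this checks the code and not the choice near the threshold. Python 3.11.15, numpy 2.4.6, pandas 2.3.3, SciPy 1.17.1 and matplotlib 3.10.9 were used.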

Additional observations from a re-analysis of the deposited data

How the results depend on the processing

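The number of missing strong distal regions was 1156 as reported. It was 2473 with peaks of a −log10 q of at least 5, 546 with lists of equal length, 507 with strength by −log10 p, 164 with mean percentiles above 75, and 332 with both fold and −log10 p above percentile 50, a setting chosen after seeing the data. The cuts on −log10 q and on peak width were made in the sgArid1a lists too. A region whose called sgArid1a peaks all fell below such a cut could thus count as missing. Leaving out 1 library gave 1417 to 2847, but it also loosened the rule, which then asked for absence or presence in 1 list fewer. Merging within 1 kb, a gene-end distance over 2.5 kb, no sgArid1a peak within 500 bp, and peaks of at least 500 bp kept it within 1103 to 1438. The share inside genes was 52.5% with −log10 q of at least 5, 56.8% with equal lists, 64.7% with strength by −log10 p, 54.9% with percentiles above 75 and 54.0% with peaks of at least 500 bp. For the gene lists together the missing share was 16.3%, 3.56%, 2.08%, 1.78% and 9.12% in the same order of settings. It was 1.61% with fold and −log10 p together, and 4.996% as reported. Over all strong distal regions it was 16.2%, 2.76%, 1.96%, 1.40%, 8.34%, 1.58% and 4.39% in the same order. Without 1 library the share of the gene lists ranged from 5.56% to 12.6%, and that of all strong distal regions from 5.36% to 10.8%. The difference in peak length near missing regions stayed negative under all 16 alternatives (-895 to -27.0 bp; at the same window, -173 bp with strength by −log10 p and -55.1 bp with equal lists), as did that at gene ends under all 15 (-155 to -52.9 bp). Relative to kept regions, the difference turned with strength by −log10 p (0.065), with percentiles above 75 (0.010) and without sgScramble replicate 2 (0.0036; without other libraries -0.022 to -0.010) and was -0.064 with equal lists. Nearest over other genes it turned with a distance over 2.5 kb (0.0015), with 1 kb around gene ends (0.0084) and without sgArid1a replicate 2 or either sgScramble replicate (6.84e-05 to 0.0049; without sgArid1a replicate 1 it was -0.014), and was -0.061 with equal lists. The cause of these turns was not tested. The labels do not say that replicate numbers pair libraries across groups. With the number as a replicate block, the paired differences were -129 bp, -0.029 and -118 bp, as without it, and the exact sign-flip p was 0.5, the smallest that 2 pairs can give.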
